A study of Homo sapiens with 4 samples.

Results

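The human RNA of tumour barcodes with little cell-cycle RNA was examined in 4 single-cell libraries from PANC-1 tumours. Every barcode held UMIs (unique molecules counted after removal of PCR copies) of both human and mouse genes, and the UMIs of its human genes are called its human part. To be kept, a human part needed 500 or more UMIs over 250 or more genes, with mitochondrial genes at 25% or less. Non-cycling parts were chosen by 2 marker sums: a kept human part was called non-cycling when the summed UMIs of 5 mitosis genes (MKI67, TOP2A, CENPF, CCNB1 and CDK1) were under 0.05% of its human UMIs and those of 11 S-phase genes (PCNA, MCM3, MCM4, MCM5, MCM6, UHRF1, HELLS, CLSPN, GINS2, TYMS and RRM2) were under 0.05% as well. This rule found 495 non-cycling human parts among 1013 kept human parts and 1056 barcodes. They were 138 of 283 kept parts in the agrimoniin library, 130 of 292 in the erlotinib library, 129 of 245 in the combination library and 98 of 193 in the control library. The rule reads RNA, so low cell-cycle RNA is how the parts were chosen and is described here without a test.

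All 4 tumours were grown from PANC-1, a cell line of a pancreatic ductal adenocarcinoma of human origin, under the skin of nude mice, hosts without a thymus that lack most T cells. The tumours were given agrimoniin, an ellagitannin of agrimony plants, erlotinib, which blocks the tyrosine kinase of the EGF receptor, both drugs together (the combination), or the carrier without a drug (control), as the design text has it. The series asked how these drugs act on proliferation, on lactic acid and on the tumour environment, and the comparisons below ask which treatment differences remain in parts with little cell-cycle RNA. The groups follow the sample labels, which list erlotinib, while the text on the series' design lists cyranin in its place. Dose, duration, and the number of mice behind a library are not given in the sources used here. With 1 library per group, no difference has a replicate check and no p-value is given: each comparison sets 1 library against another. All 3 comparisons with control use the same control library, and anything peculiar to it enters each of them.

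Dividing cells make large amounts of RNA for DNA replication and chromosome segregation, and a treatment that changes the share of dividing cells changes the average level of all these genes at the same time. Cells with little such RNA are a mixture of cells in G1, cells that have left the cycle for a time and cells that have left it for good, and the RNA of a few cycle genes does not tell these apart. In pancreatic cancer cells, signalling through EGFR, RAS and ERK drives entry into the cycle, and ERK also switches on its own brakes, among them the phosphatase DUSP6.

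The non-cycling parts held 1662604 human UMIs in agrimoniin, 1497602 in erlotinib, 1482914 in combination and 1129029 in control. Their median depth was 12058, 10437, 10810 and 10503 UMIs per part in that order, with 4085.5, 3746, 3792 and 3570 genes. The mitochondrial share was close in the treated libraries, with medians of 8.59% with agrimoniin, 8.34% with erlotinib and 8.88% with the combination, and higher in control at 10.4%. Of a barcode's UMIs, the median human share was 74.3% (agrimoniin), 72.2% (erlotinib), 76.6% (combination) and 67.9% (control). Marker genes were read, which does not settle the identity of the labelled cell line. VIM, the vimentin gene, stood at 5298, 5045 and 5095 counts per 1e6 human UMIs (CPM) in the treated libraries in the same order and 5170 CPM in control, while the epithelial keratin gene KRT8 stood at only 43.9, 74.1, 55.3 and 46.1 CPM. KRT7 and KRT19, keratins of ductal epithelium, were at or under 2.00 CPM in each library, so they did not show a ductal identity. Human leukocyte markers summed to at most 8.9 CPM and human endothelial markers to at most 0.9 CPM, and COL1A1 was high (6341 to 8223 CPM) where COL1A2, DCN and LUM were at or under 5.31 CPM. In mouse RNA of the same barcodes, fibroblast markers summed to 28851, 30856 and 30440 CPM of mouse UMIs in agrimoniin, erlotinib and combination and 36521 CPM in control, and macrophage markers to 7563, 9723 and 7170 CPM and 5417 CPM in control. Their part in the human ratios was not tested. Because no barcode held 1 species alone, none gives the level of free human RNA. The libraries shared 0 barcode sequences.

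The non-cycling share was 48.8% of kept human parts in agrimoniin (exact Clopper-Pearson 95% interval 42.8% to 54.8%), 44.5% in erlotinib (38.7% to 50.4%), 52.7% in combination (46.2% to 59.0%) and 50.8% in control (43.5% to 58.0%). The 4 intervals overlap, and, like all intervals here, they cover counting error only. With each part thinned to 5000 UMIs the shares were 47.2%, 43.0% and 51.8% in agrimoniin, erlotinib and combination and 51.8% in control. Of the remaining 518 kept parts, 14, 13, 8 and 20 passed only the mitosis threshold in agrimoniin, erlotinib, combination and control, 47, 55, 38 and 28 only the S-phase threshold, and 84, 94, 70 and 47 both. Between 0.04% and 0.05% on the larger of their 2 marker sums were 12, 11, 11 and 6 non-cycling parts, and between 0.05% and 0.06% were 10, 8, 9 and 8 remaining parts. No UMI of any of the 16 rule genes was found in 13, 7 and 12 non-cycling parts of agrimoniin, erlotinib and combination and in 19 of control.

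**Figure D1:**
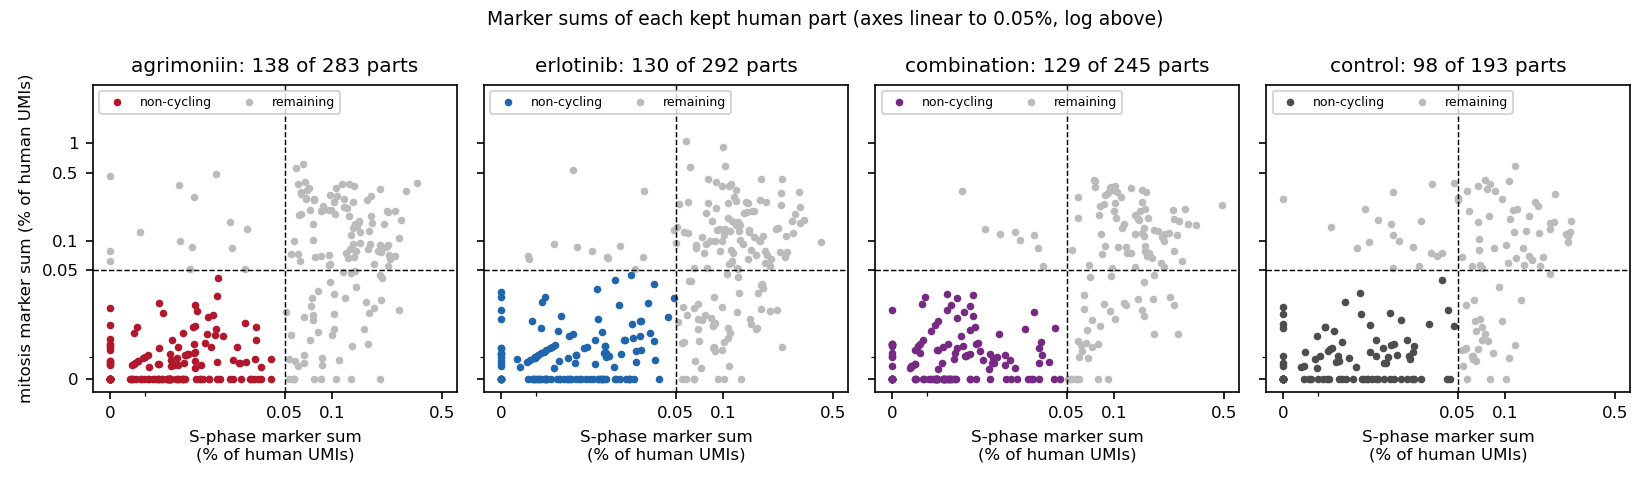
Mitosis marker sum against S-phase marker sum, each in percent of human UMIs, for every kept human part of the 4 libraries, with dashed lines at 0.05%. Coloured points under both lines are the 138, 130, 129 and 98 non-cycling parts of agrimoniin, erlotinib, combination and control, and grey points are the remaining parts.

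Non-cycling parts differed from the remaining human parts of the same libraries in more than the rule genes, which is given as a description since all these genes come from the cells the rule sorted. Over 5800 genes, 49 (0.845%) were past 1.5-fold higher in non-cycling parts in all 4 libraries and 173 (2.98%) past 1.5-fold lower. By the mean over the 4 libraries, 222 genes (3.83%) were past 1.5-fold higher and 296 (5.1%) lower. Of 28 measured G2/M genes outside the rule, 28 were past 1.5-fold lower by this mean, with a median log2 ratio from −3.21 to −2.49. KIF2C, a kinesin of the mitotic spindle, stood at 2.41, 3.34, 2.70 and 0 CPM in the non-cycling parts of agrimoniin, erlotinib, combination and control, against 73.5, 83, 53.5 and 66.6 CPM in their remaining parts. BIRC5, the survivin gene, stood at 4.21, 10.7, 6.74 and 1.77 CPM in non-cycling parts, against 104, 118, 116 and 82.1 CPM. The rule gene MKI67 stood at 7.22, 10.0, 12.8 and 7.09 CPM in non-cycling parts, against 250, 259, 261 and 249 CPM in remaining parts. In each library these 3 genes were far lower in the chosen parts than in the rest of the same tumour.

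Hypoxia-response genes were among those higher in non-cycling parts. Of 18 hypoxia-response genes, 9 were past 1.5-fold higher and 0 lower by the mean over the libraries, with a median log2 ratio from 0.41 to 0.72, against 0.00 to 0.04 over all genes. STC1, a secreted glycoprotein induced by hypoxia, stood at 102, 153, 109 and 145 CPM in the non-cycling parts of agrimoniin, erlotinib, combination and control, against 36.5, 73.3, 94.7 and 31.0 CPM in remaining parts. LTBP1, which holds latent TGF-beta in the matrix, stood at 84.8, 84.1, 123 and 87.7 CPM, against 40.9, 39.9, 48.6 and 21.7 CPM in remaining parts. THBS1, the matrix protein thrombospondin-1, stood at 187, 85.5, 116 and 211 CPM, against 69.0, 56.2, 52.3 and 32.5 CPM, with 36.1% of its control UMIs from 1 non-cycling part. HIST1H2BE, a histone gene of a multigene family whose copies the counting could split, stood at 46.9, 63.4, 38.4 and 44.3 CPM, against 17.3, 15.8, 16.6 and 16.3 CPM. The 10 highest genes by the mean log2 ratio were these 4 with IGFBP5, TENT5A, CADM2, HIST1H2AC, GARS-DT and SLITRK6, and the ratio of STC1 in combination was only 0.20 on the log2 scale. The oxidative phosphorylation genes of the nucleus had a median from −0.33 to −0.26, with 1 of 32 genes past the fold. Genes of arrest and cycle exit had medians of 0.27, 0.40, 0.17 and 0.05 in agrimoniin, erlotinib, combination and control. Of 14 measured, 2 were past the fold and higher and 2 lower by the mean over the libraries. CDKN1A, the p21 inhibitor that is known to mark arrest, was 1 member that was not higher. It stood at 34.9, 50.1, 41.1 and 40.7 CPM in non-cycling parts of the 4 libraries in the same order, against 44.4, 60.6, 55.3 and 51.1 CPM in remaining parts. Median depth was lower in the non-cycling parts of each library, against 13327, 13728, 13304 and 13074 UMIs in remaining parts, and the part of depth in these differences was not tested.

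Treatment comparisons used the 5771 genes with a mean of at least 30 CPM over the non-cycling parts of the 4 libraries, and a gene is said to be past the fold when its ratio of (CPM + 1) reached 1.5 in either direction. In agrimoniin against control 277 genes (4.8%) were past the fold, 172 (2.98%) higher and 105 (1.82%) lower. In erlotinib against control they were 442 (7.66%), with 239 (4.14%) higher and 203 (3.52%) lower. In combination against control they were 303 (5.25%), with 135 (2.34%) higher and 168 (2.91%) lower. Combination against agrimoniin gave 264 genes (4.57%), 88 (1.52%) higher and 176 (3.05%) lower, and combination against erlotinib gave 337 (5.84%), 159 (2.76%) higher and 178 (3.08%) lower. The median log2 ratio over all genes was 0.03, 0.03 and 0.01 for agrimoniin, erlotinib and combination against control, and −0.03 and −0.02 for combination against agrimoniin and erlotinib. The SD of the log2 ratios over genes was 0.30, 0.33 and 0.30 for agrimoniin, erlotinib and combination against control, where counting error alone gives 0.22 in each. A gene with few UMIs can therefore pass the fold by counting error, and for many of the genes below the ratio in the remaining parts of the same libraries is given as well. Genes named below as highest or lowest were picked by the same counts that give their intervals. Those intervals do not allow for the choice, so an interval clear of 1 is no further support for such a gene.

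In the agrimoniin library, non-cycling parts had less RNA for the heat-shock gene HSPA6, the transcription factor gene SNAI1 and the EGFR ligand EREG than control, and more for the basement membrane gene NID1, the Notch target HEY1 and DUSP6. NID1, whose product nidogen links laminin to collagen in basement membranes, stood at 428 CPM in agrimoniin, 281 in erlotinib, 240 in combination and 123 in control. Its ratio in agrimoniin was 3.48 (95% interval 2.90 to 4.2, exact and given the total of the 2 counts). In the remaining parts NID1 was at 134 CPM in agrimoniin and 104 CPM in control, a log2 ratio of 0.36, against 1.79 in non-cycling parts. EPHA7, an ephrin receptor, stood at 133, 74.1, 118 and 44.3 CPM in agrimoniin, erlotinib, combination and control, 3.0-fold higher in agrimoniin (2.20 to 4.17). In remaining parts EPHA7 went the other way in agrimoniin, with a log2 ratio of −0.62. HEY1, a repressor that Notch signalling switches on, stood at 72.8, 78.1 and 72.8 CPM in the 3 treated libraries and 33.7 CPM in control. The HEY1 ratio was 2.16 with agrimoniin (1.49 to 3.2), 2.32 with erlotinib (1.60 to 3.44) and 2.16 with the combination (1.48 to 3.22), so each treated library lay above control in non-cycling parts. With parts of at most 10% mitochondrial UMIs its log2 ratio was under the fold, at 0.48 with agrimoniin and 0.34 with erlotinib. In remaining parts HEY1 was at 24.7, 46.5 and 52.9 CPM in the treated libraries and 32.5 CPM in control, and the agrimoniin library was then below control.

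SNAI1, which drives the loss of epithelial features, stood at 16.8 CPM in agrimoniin, 40.1 in erlotinib, 22.9 in combination and 53.1 in control. It was 3.16-fold lower in agrimoniin (1.98 to 5.13) and 2.32-fold lower in combination (1.5 to 3.64). Its log2 ratios in remaining parts, −1.31 in agrimoniin and −1.45 in combination, were past the fold as well. With parts thinned to 5000 UMIs its log2 ratio in combination was −0.30, under the fold. CLU, a secreted chaperone, stood at 226, 345 and 346 CPM in the treated libraries and 509 CPM in control, 2.25-fold lower in agrimoniin (1.97 to 2.57), with a log2 ratio of −0.33 in remaining parts. It was uneven, with 20% of its control UMIs and 34.1% of its erlotinib UMIs from 1 part. Without the top part of each library its log2 ratio in agrimoniin was −0.94, against −1.17 with all parts. Of the other lowest genes in agrimoniin, IFITM2 (interferon-induced), NUP62 (nuclear pore), SPSB1 (a ubiquitin ligase adaptor), LMBRD1 (lysosomal) and NUPR1 (stress-induced) were 2.03- to 2.57-fold lower. NUPR1 and LMBRD1 had log2 ratios of 0.53 and 0.28 in remaining parts, the opposite direction. MTRNR2L12, whose sequence resembles mitochondrial ribosomal RNA so that its reads are uncertain, stood at 366, 419 and 313 CPM in the treated libraries and 698 CPM in control. Among the highest genes, ARHGAP42, POLD2 (a DNA polymerase delta subunit), AC010624.5, PUS7L (a pseudouridine synthase relative), SLC4A11 (a membrane transporter), PDE4A (which degrades cyclic AMP) and SMYD2 (a lysine methyltransferase) were 2.07- to 3.04-fold higher, each under 55 CPM in agrimoniin. Over the alternatives SLC4A11 reached a log2 ratio as low as 0.48 (75% or more human UMIs) and SMYD2 0.57 (10% or less mitochondrial UMIs), both under the fold. Of the 10 highest and 10 lowest genes of agrimoniin, 5 and 8 had the same sign in remaining parts, and 1 and 3 were past the fold there, beside 3.05% and 2.81% of all genes. Unrelated signs would agree for about 5 of 10 genes, here and in the counts of signs below.

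**Figure D2:**
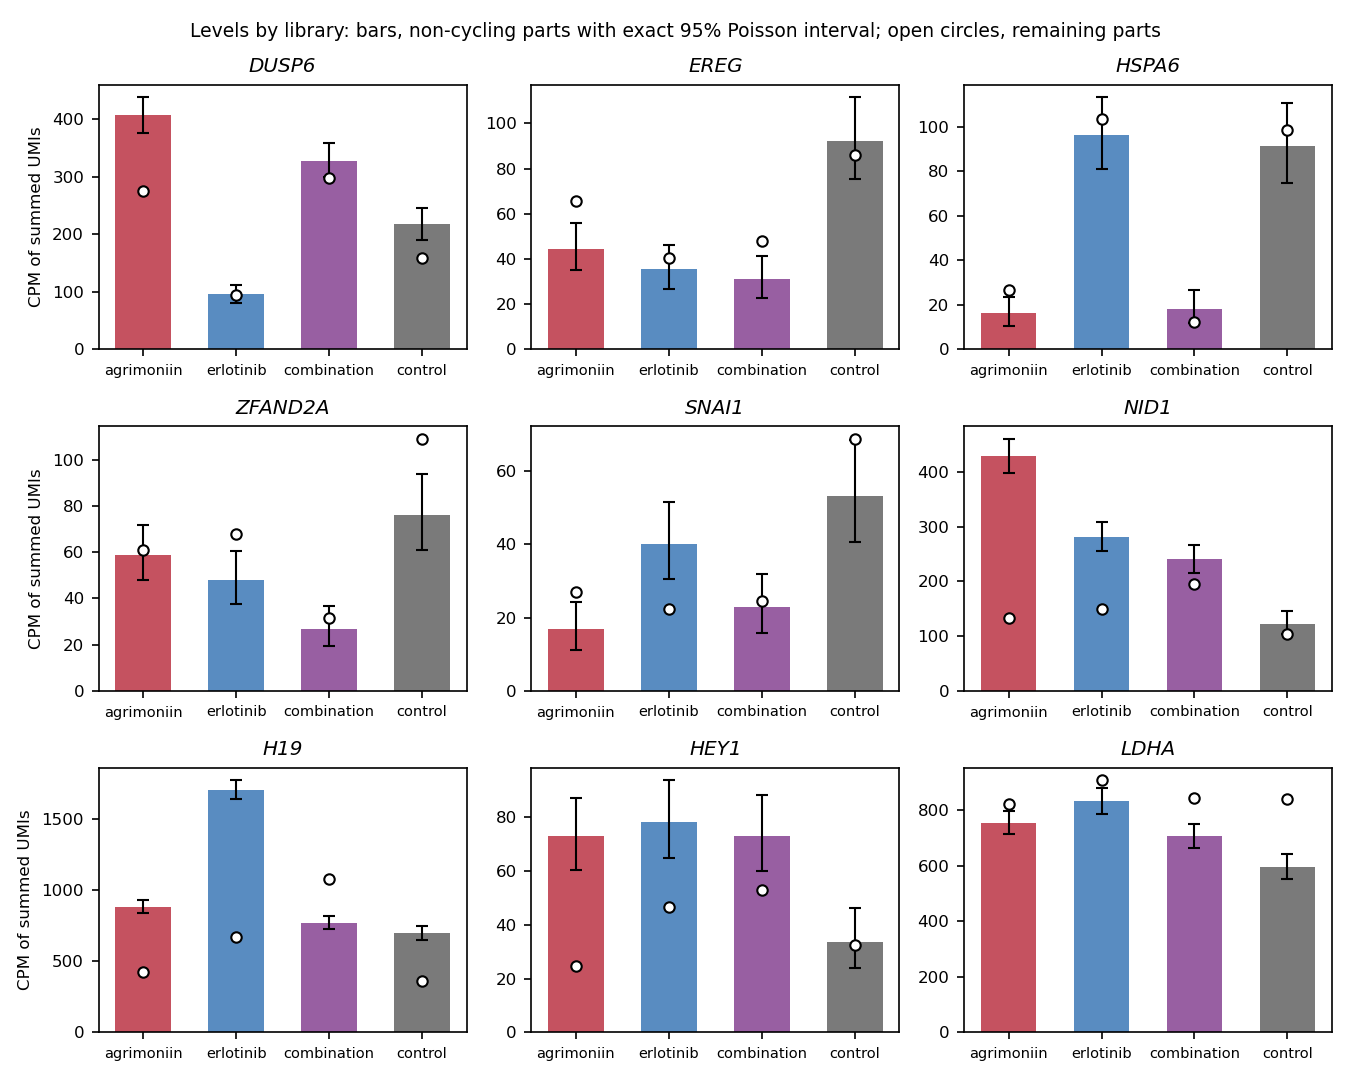
Level in CPM of 9 genes in the summed non-cycling parts of agrimoniin, erlotinib, combination and control (bars, with exact 95% Poisson intervals that cover counting error only) and in the remaining parts (open circles). DUSP6 is lowest in erlotinib at 95.5 CPM, HSPA6 is at 16.2 CPM in agrimoniin and 18.2 CPM in combination, and HEY1 is higher in each treated library than the 33.7 CPM of control.

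In the erlotinib library, non-cycling parts had less RNA for DUSP6, EREG and the membrane protein gene EMP1 than control, together with several receptor and adhesion genes, and more for the imprinted noncoding RNA H19. BMPR1B, a type I receptor for bone morphogenetic proteins, stood at 30.7 CPM in agrimoniin, 10.7 in erlotinib, 45.2 in combination and 39.0 in control. It was 3.65-fold lower in erlotinib (2.02 to 6.93), and its log2 ratio was −1.15 in remaining parts, against −1.77 in non-cycling parts. EMP1 stood at 155, 67.4, 129 and 163 CPM in agrimoniin, erlotinib, combination and control, 2.42-fold lower in erlotinib (1.89 to 3.11), with a log2 ratio of −1.26 in both kinds of part. Erlotinib was the lowest library for both genes. CD9, a tetraspanin of the cell surface, stood at 75.8, 35.4, 88.3 and 97.4 CPM, 2.75-fold lower in erlotinib (1.97 to 3.90). SFRP1, a secreted Wnt antagonist, stood at 108, 47.4, 137 and 126 CPM, 2.65-fold lower in erlotinib (1.98 to 3.58). FOXP1, a transcription factor gene, stood at 196, 117, 201 and 276 CPM, 2.36-fold lower in erlotinib (1.96 to 2.86). NRP2, a coreceptor of semaphorins and VEGF, SYNJ2, a lipid phosphatase gene, PLCB4, a phospholipase gene, and ITGA10, a collagen-binding integrin gene, were 2.35- to 2.89-fold lower. All 10 of the lowest genes of erlotinib had the same sign in remaining parts, where 3 (EREG, BMPR1B and EMP1) were past the fold, beside 2.58% of all genes. Of its 10 highest genes, 8 had the same sign there and 3 were past the fold, beside 2.86% of all genes.

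H19 stood at 887 CPM in agrimoniin, 1709 in erlotinib, 773 in combination and 700 in control, 2.44-fold higher in erlotinib (2.25 to 2.65). It was uneven between parts: 95 of 130 non-cycling parts of erlotinib held a UMI of H19, against 43 of 98 in control, where 1 part gave 22.2% of the UMIs. In parts from barcodes with at least 75% human UMIs its log2 ratio was 0.56, under the fold, against 1.29 in all non-cycling parts. SLC4A11 stood at 33.1, 48.1, 31.7 and 14.2 CPM in agrimoniin, erlotinib, combination and control, 3.39-fold higher in erlotinib (1.95 to 6.25). ZNF90, a zinc finger gene, stood at 26.5, 61.4, 60.7 and 22.1 CPM, so both libraries with erlotinib were high and both others low. Its log2 ratio in erlotinib was 1.43 in non-cycling parts and 1.36 in remaining parts, and in combination 1.41 and 1.56. FADS2, a fatty acid desaturase gene, and TM7SF2, a sterol reductase gene, were 2.44-fold and 2.37-fold higher in erlotinib in non-cycling parts, with log2 ratios of −0.09 and 0.07 in remaining parts. FZD4 (a Wnt receptor), CTNNBL1 (a spliceosome partner), HECW2 (a ubiquitin ligase) and PLEKHH2 were 2.42- to 2.62-fold higher, and HEY1 is given above.

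In the combination library, non-cycling parts had less RNA than control for HSPA6, EREG, ZFAND2A and SNAI1, and more for ZNF90, EPHA7, PKIG, RGMB and HEY1. EPHA7 was 2.66-fold higher in combination (1.94 to 3.73), and ZNF90 2.74-fold higher (1.74 to 4.46). NUP62 stood at 26.3 CPM in combination and 54.0 CPM in control. ZFAND2A, a stress-induced partner of the proteasome, stood at 58.9 CPM in agrimoniin, 48.1 in erlotinib, 27.0 in combination and 76.2 in control, 2.82-fold lower in combination (1.92 to 4.22). In remaining parts it stood at 31.4 CPM in combination and 109 CPM in control. SPDL1, a kinetochore gene, stood at 103, 112, 84.3 and 175 CPM in non-cycling parts of agrimoniin, erlotinib, combination and control, 2.08-fold lower in combination (1.66 to 2.62). In remaining parts SPDL1 was at 260 CPM in combination and 272 CPM in control. AGR2, a disulfide isomerase gene of secretory cells, stood at 45.1, 76.8, 37.8 and 77.9 CPM, so both libraries with agrimoniin were low. GPRC5A, an orphan receptor gene, and SS18L2 were 2.16-fold and 2.21-fold lower in combination. With parts thinned to 5000 UMIs, NUP62 (−0.39), GPRC5A (−0.26) and POLD2 (0.58) were under the fold in combination, and GPRC5A also with at most 10% mitochondrial UMIs (−0.56). On the high side, PKIG, an inhibitor of protein kinase A, was at 63.4 CPM in combination and 25.7 CPM in control, RGMB, a coreceptor of bone morphogenetic proteins, at 76.9 and 31.9 CPM, and DLD, a subunit of mitochondrial dehydrogenase complexes, at 43.2 and 17.7 CPM. Of the 10 highest and 10 lowest genes of combination, 7 and 10 had the same sign in remaining parts and 2 and 6 were past the fold there, beside 3.55% and 3.08% of all genes.

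**Figure D3:**
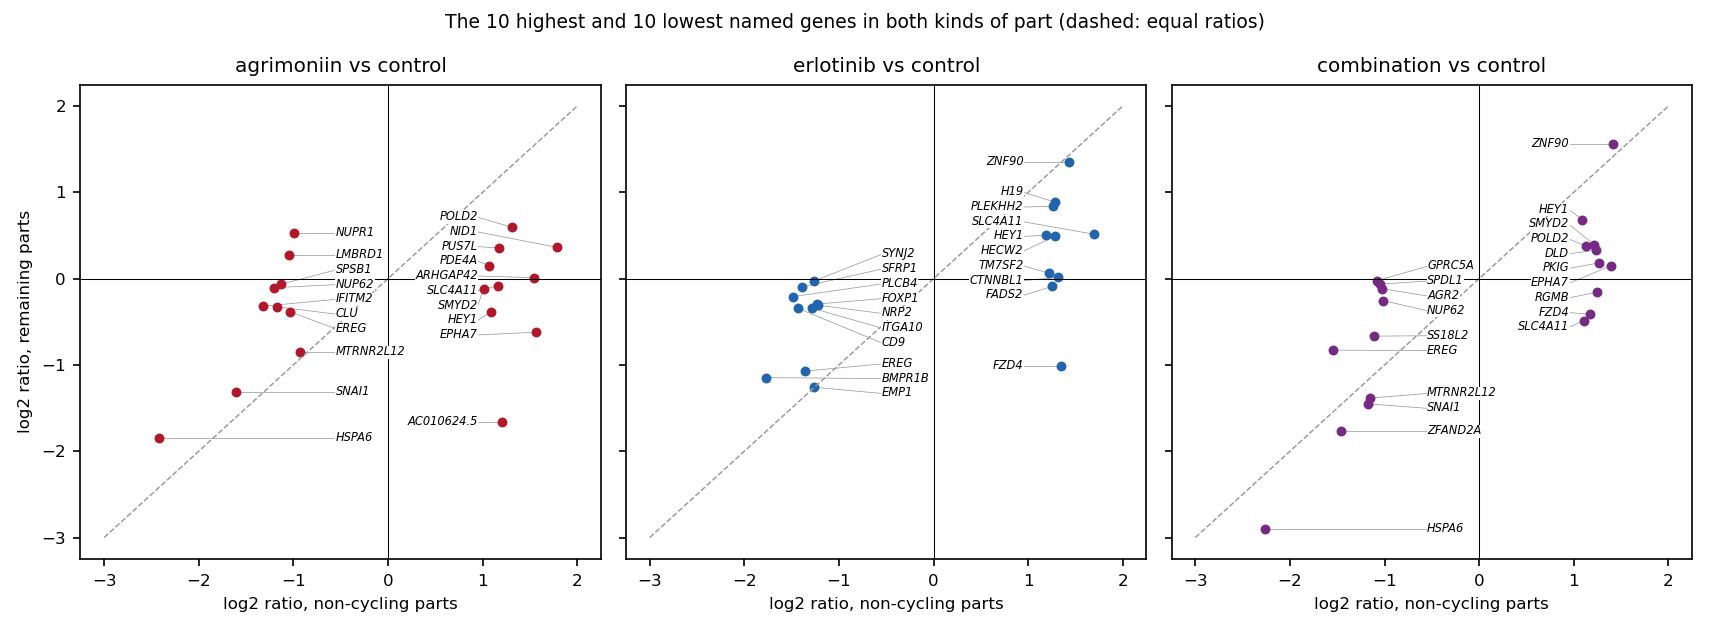
Log2 ratio of (CPM + 1) against control in non-cycling parts (x axis) and in remaining parts of the same libraries (y axis) for the 10 highest and 10 lowest genes of each treated library, with the dashed line at equal ratios. Genes near the dashed line, such as HSPA6 in agrimoniin and combination, EMP1 in erlotinib and ZNF90 in erlotinib and combination, differed about as much in both kinds of part, and genes near the horizontal line had a ratio near 1 in remaining parts.

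EGFR signalling was followed through its receptor, ligands and output genes. EGFR stood at 160 CPM in agrimoniin, 204 in erlotinib, 145 in combination and 186 in control. The interval of its ratio to control held 1 in agrimoniin (1.16-fold lower, 0.966 to 1.40) and in erlotinib (1.09-fold higher, 0.915 to 1.31). EGFR was 1.28-fold lower in combination (1.06 to 1.56), while its log2 ratio in remaining parts was 0.17. EREG stood at 44.5, 35.4, 31.0 and 92.1 CPM in agrimoniin, erlotinib, combination and control. It was 2.07-fold lower with agrimoniin (1.52 to 2.83), 2.60-fold lower with erlotinib (1.85 to 3.70) and 2.97-fold lower with the combination (2.08 to 4.30). In remaining parts EREG stood at 65.6, 40.4 and 48.0 CPM in the treated libraries and 86 CPM in control, so control was the highest library in both kinds of part. With a marker threshold of 0.03% the log2 ratio of EREG in agrimoniin was −0.43, under the fold. Of 12 genes of the EGFR family and ligands, 4 were measured, and EREG alone was past the fold.

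DUSP6 stood at 406 CPM in agrimoniin, 95.5 in erlotinib, 327 in combination and 217 in control. It was 1.87-fold higher with agrimoniin (1.61 to 2.17), 2.27-fold lower with erlotinib (1.84 to 2.81) and 1.51-fold higher with the combination (1.29 to 1.76). Erlotinib was the lowest library and control the next lowest in remaining parts as well, with 275, 94.8 and 298 CPM in agrimoniin, erlotinib and combination and 158 CPM in control. In control 22.9% of the DUSP6 UMIs came from 1 part, and without the top part of each library the log2 ratios were 1.16 in agrimoniin, −0.96 in erlotinib and 0.88 in combination. In barcodes with at least 75% human UMIs its ratio in erlotinib was under the fold, at −0.53. Its ratio in combination (0.59) was near the fold, and under it in 6 of 13 alternatives, at 0.53 to 0.58. Of 17 measured EGFR-MAPK output genes, 2 (DUSP6 and SPRY1) were past the fold and higher in agrimoniin and 0 lower, with a median log2 ratio of 0.11. In erlotinib 3 were lower (EMP1, DUSP6 and MYC) and 0 higher, with a median of −0.07. In combination DUSP6 alone was past the fold, and the median was 0.06. MYC, the growth transcription factor, stood at 81.8, 62.8, 93.7 and 106 CPM, and SPRY1, a feedback inhibitor of receptor kinases, at 46.3, 30.7, 38.4 and 25.7 CPM in agrimoniin, erlotinib, combination and control. SPRY4, a relative of SPRY1, stood at 139, 173, 147 and 119 CPM, highest in erlotinib. Of all genes, 2.98%, 4.14% and 2.34% were past the fold and higher in agrimoniin, erlotinib and combination, and 1.82%, 3.52% and 2.91% lower. The medians for all genes were 0.03, 0.03 and 0.01, so the list as a whole lay near the background and the contrast rests on single genes.

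Among the genes kept by the naming rule, HSPA6 had the largest ratio to control in the agrimoniin library and in the combination library. The bases before its start and before that of HSPA1A are shown because heat-shock factor binds inverted GAA and TTC units. The stretches are the 250 bases before each start in RefSeq (GRCh38.p14), both on the plus strand, at chr1:161524290-161524539 for HSPA6 and chr6:31815293-31815542 for HSPA1A. Capitals mark each match to GAANNTTC or TTCNNGAA, where N is any base. Both patterns read the same on the other strand, and matches may overlap.
HSPA6: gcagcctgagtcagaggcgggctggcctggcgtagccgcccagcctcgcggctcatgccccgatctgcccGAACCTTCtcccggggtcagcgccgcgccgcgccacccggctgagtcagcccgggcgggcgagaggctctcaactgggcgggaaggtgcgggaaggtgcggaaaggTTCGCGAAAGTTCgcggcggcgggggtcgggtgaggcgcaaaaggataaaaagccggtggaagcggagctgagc
HSPA1A: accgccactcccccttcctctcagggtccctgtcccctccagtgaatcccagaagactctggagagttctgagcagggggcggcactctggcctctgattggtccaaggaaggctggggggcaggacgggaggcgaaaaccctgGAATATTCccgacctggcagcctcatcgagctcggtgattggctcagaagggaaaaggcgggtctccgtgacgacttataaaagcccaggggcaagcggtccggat
HSPA6 holds 3 matches and HSPA1A 1. Of the 19 heat-shock genes, 17 had a RefSeq promoter entry and 14 of these a match, in windows of 300 bases that also take in the start. These 17 genes had 26 such windows, of which 15 hold a match. Over 35116 such windows of all genes, 13.5% hold either pattern, 6.77% GAANNTTC and 7.74% TTCNNGAA. A match describes the letters and does not show that a factor binds there.

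HSPA6, a heat-shock protein 70 of humans that is almost silent without stress and has no counterpart in mice, lies on chromosome 1 at 161524540 to 161526910 (GRCh38, GENCODE 29). It stood at 16.2 CPM in agrimoniin, 96.2 in erlotinib, 18.2 in combination and 91.2 in control. It was 5.62-fold lower in agrimoniin (3.65 to 8.93) and 5.01-fold lower in combination (3.25 to 7.97), while the erlotinib ratio was 1.05 (0.813 to 1.37). Both libraries with agrimoniin were therefore low and both without it high, and remaining parts had the same split, at 26.6 and 12.3 CPM in agrimoniin and combination, 104 CPM in erlotinib and 98.3 CPM in control. These levels rest on 27, 144, 27 and 103 UMIs in 14, 32, 13 and 25 non-cycling parts of agrimoniin, erlotinib, combination and control. In combination 33.3% of the UMIs came from 1 part.

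The other chaperone genes showed smaller ratios. HSPA1A, the main inducible heat-shock protein 70, stood at 2382, 4013, 2620 and 3086 CPM in agrimoniin, erlotinib, combination and control, and HSPA1B, a near-identical copy with which it can share reads, at 1438, 1810, 1283 and 1602 CPM. The sum over the list was 14590, 17023 and 13780 CPM in agrimoniin, erlotinib and combination and 16150 CPM in control. In combination 0 of 18 measured genes lay above a ratio of 1, 3 (HSPA6, ZFAND2A and FKBP4) were past the fold and lower, and the median log2 ratio was −0.32. In agrimoniin 1 gene (HSPA6) was past the fold and lower, with a median of −0.09, and in erlotinib 1 (ZFAND2A), with a median of −0.01. In remaining parts the medians were −0.36, −0.17 and −0.42. Of all genes in non-cycling parts, 1.82%, 3.52% and 2.91% were past the fold and lower in agrimoniin, erlotinib and combination, with medians of 0.03, 0.03 and 0.01. Immediate early genes, which respond to enzymatic digestion of tissue as heat-shock genes do, summed to 16019, 20864 and 18309 CPM in agrimoniin, erlotinib and combination and 15722 CPM in control. ZFP36, an immediate early gene and the most uneven gene among parts, alone stood at 6576, 11054 and 8464 CPM in the treated libraries and 7107 CPM in control. The part of immediate early genes in the chaperone levels was not tested.

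Cell-cycle genes outside the rule entered the treatment comparisons only where they reached 30 CPM in non-cycling parts. Of 30 S-phase genes 7 were measured, with median log2 ratios of −0.16 with agrimoniin, 0.06 with erlotinib and −0.27 with the combination, and of 35 G2/M genes 9, with medians of −0.04, −0.06 and −0.15. CKS2, a partner of cyclin-dependent kinases, stood at 123, 132 and 122 CPM in agrimoniin, erlotinib and combination and 180 CPM in control. All 9 G2/M genes were below a ratio of 1 in combination, where the median log2 ratio of all genes was 0.01. Among the rule genes, PCNA, the sliding clamp of DNA polymerase, stood at 44.5, 48.1, 29 and 25.7 CPM in non-cycling parts, levels that the threshold itself limits. Genes of arrest and cycle exit had medians of −0.08, 0.21 and 0.03 over 13 measured genes, against −0.24, −0.31 and −0.15 in remaining parts. GADD45B, a stress-induced growth regulator, stood at 146, 290, 228 and 232 CPM in agrimoniin, erlotinib, combination and control and was the arrest gene past the fold and lower in agrimoniin. GADD45A, a relative of it, stood at 55.9, 43.4, 29.7 and 27.5 CPM and was the arrest gene past the fold and higher in agrimoniin and erlotinib, with 23.7% of its agrimoniin UMIs from 1 part. CDKN1A was 1.17-fold lower with agrimoniin (0.776 to 1.75), 1.23-fold higher with erlotinib (0.840 to 1.81) and 1.01-fold higher with the combination (0.677 to 1.51), and each interval held 1. CCND1, the cyclin D1 gene through which growth signals reach the cycle, stood at 339, 391 and 338 CPM in the treated libraries and 324 CPM in control, 1.20-fold higher in erlotinib (1.06 to 1.38).

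**Figure D4:**
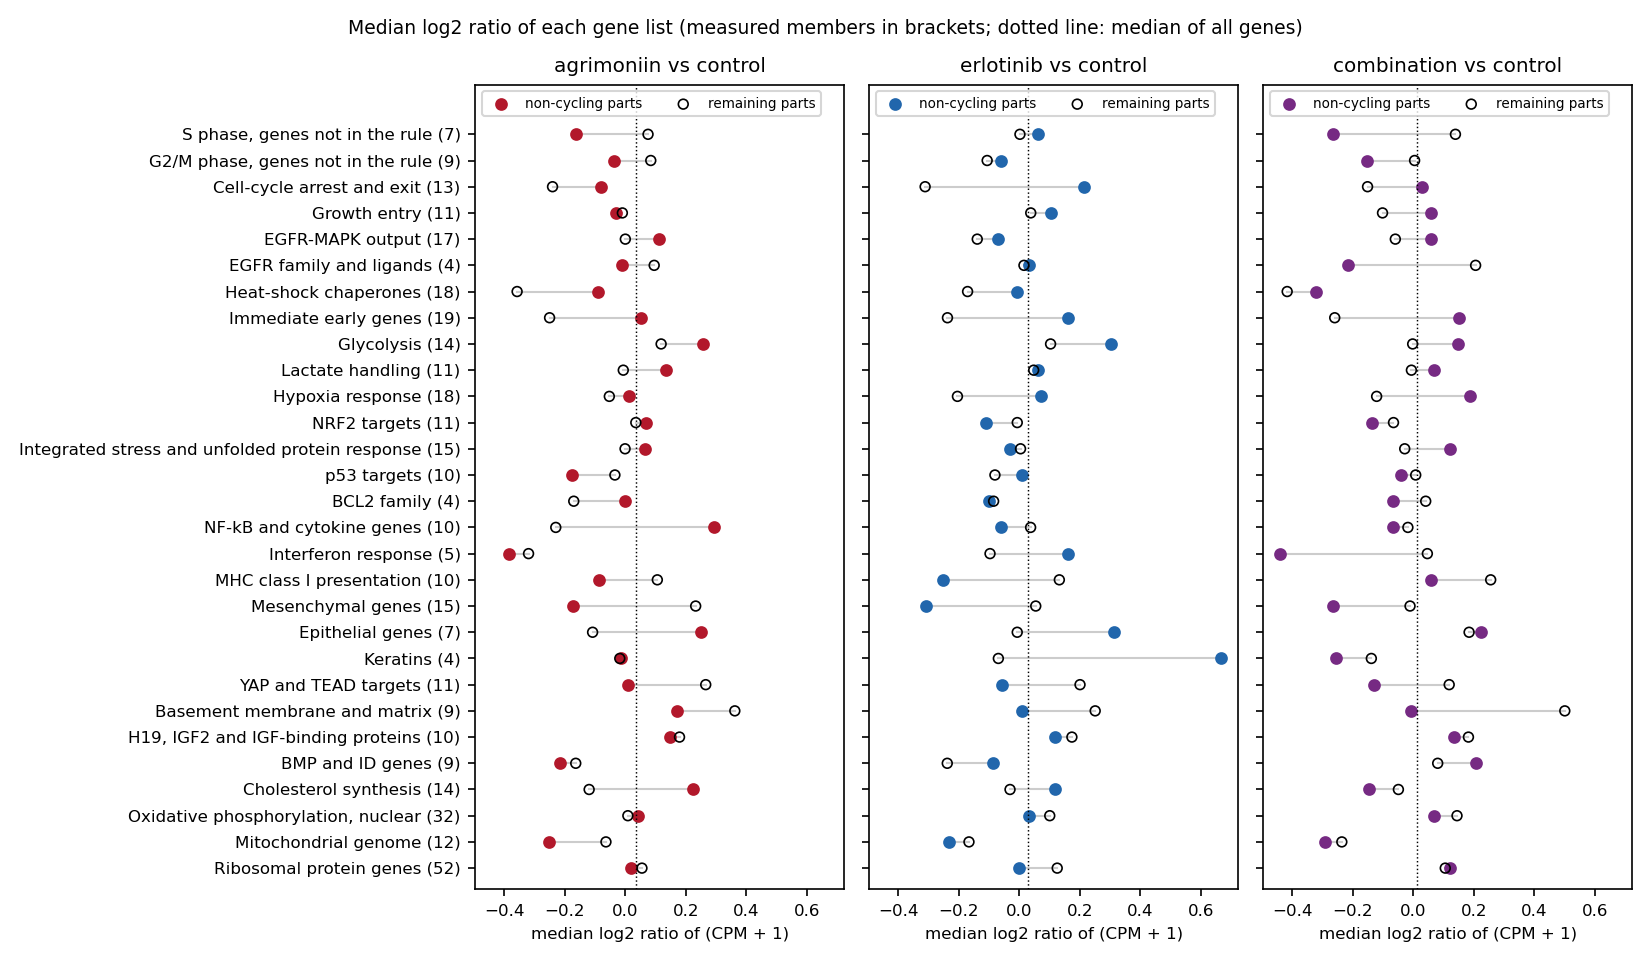
Median log2 ratio of (CPM + 1) against control of each gene list in non-cycling parts (filled) and remaining parts (open), with the number of measured members in brackets and a dotted line at the median of all genes. Heat-shock chaperones lie at −0.32 in combination, glycolysis genes at 0.26, 0.30 and 0.15 in agrimoniin, erlotinib and combination, and keratins at 0.67 in erlotinib, where 4 genes were measured.

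Of 14 measured glycolysis genes, 11 were above a ratio of 1 to control in the non-cycling parts of agrimoniin, 11 in erlotinib and 10 in combination. LDHA, which makes lactate from pyruvate, stood at 754 CPM in agrimoniin, 833 in erlotinib, 707 in combination and 597 in control. Its ratio was 1.26 with agrimoniin (1.15 to 1.39), 1.39 with erlotinib (1.27 to 1.53) and 1.18 with the combination (1.07 to 1.31), all under the fold used here. In remaining parts LDHA was nearly level, at 822, 908, 842 and 839 CPM in agrimoniin, erlotinib, combination and control, so the control library had the widest gap between its non-cycling and remaining parts. LDHB, which favours the reverse reaction, stood at 274, 281, 281 and 269 CPM. GPI, the second enzyme of glycolysis, stood at 500, 483, 445 and 317 CPM in agrimoniin, erlotinib, combination and control, 1.58-fold higher in agrimoniin (1.39 to 1.79) and 1.52-fold higher in erlotinib (1.34 to 1.73). GAPDH stood at 931, 892, 897 and 690 CPM, and HK2, which traps glucose in the cell, at 63.2, 74.1, 64.7 and 45.2 CPM, both lowest in control. PFKFB3, which makes an activator of glycolysis, went the other way, with 28.9, 31.4, 39.1 and 47.8 CPM. Over the list, the count past the fold was 1 higher and 1 lower in agrimoniin, 3 higher and 1 lower in erlotinib and 0 in combination, with medians of 0.26, 0.30 and 0.15, against 0.12, 0.10 and −0.00 in remaining parts. The summed level was 5597, 5755 and 5315 CPM in agrimoniin, erlotinib and combination and 4615 CPM in control. Of all genes in non-cycling parts, 2.98%, 4.14% and 2.34% were past the fold and higher in the 3 treated libraries, and 1.82%, 3.52% and 2.91% lower. Their median log2 ratios were 0.03, 0.03 and 0.01.

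Genes that carry or turn over lactate had medians of 0.13, 0.06 and 0.07 over 11 measured genes, and 0 were past the fold. SLC16A1, a lactate transporter, stood at 108, 99.5, 89.7 and 99.2 CPM, and SLC16A3, the exporter of glycolytic cells, at 40.3, 32.1, 27.6 and 38.1 CPM in agrimoniin, erlotinib, combination and control. RNA of these genes is not a measure of lactate. Hypoxia-response genes had medians of 0.01, 0.07 and 0.19. EGLN1, an oxygen-sensing prolyl hydroxylase, stood at 126, 96.2, 117 and 72.6 CPM and was past the fold and higher in agrimoniin and combination. ANGPTL4 stood at 66.2, 70.8, 41.8 and 81.5 CPM and NDRG1 at 44.5, 54.1, 28.3 and 50.5 CPM, both hypoxia-induced and both past the fold and lower in combination. The 12 measured genes of the mitochondrial genome had medians of −0.25, −0.23 and −0.29, with 0 past the fold and 0 above a ratio of 1, and summed to 91592, 90071 and 90178 CPM in agrimoniin, erlotinib and combination and 108502 CPM in control. The higher mitochondrial share of control parts, 10.4% in the median, moves with this list by construction. With parts of at most 10% mitochondrial UMIs the agrimoniin median was 0.02. In the same setting the glycolysis medians kept their sign, and their lowest values over the alternatives were 0.12, 0.16 and 0.10 in agrimoniin, erlotinib and combination.

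The medians of the mesenchymal genes were below control and those of the epithelial genes above it in the non-cycling parts of the 3 treated libraries. Of 15 measured mesenchymal genes, 5 were past the fold and lower and 1 higher in erlotinib, with a median of −0.31, against 0.05 in remaining parts. SNAI2, a relative of SNAI1, stood at 49.3, 28.0, 31.7 and 45.2 CPM in agrimoniin, erlotinib, combination and control, and the membrane protease gene MMP14 at 39.7, 24.7, 29.7 and 46.9 CPM. In agrimoniin 2 mesenchymal genes were past the fold and lower and 2 higher, with a median of −0.17, against 0.23 in remaining parts. In combination 3 were lower and 0 higher, with a median of −0.26, against −0.01 in remaining parts. Of all genes, 1.82%, 3.52% and 2.91% were past the fold and lower in agrimoniin, erlotinib and combination, and 2.98%, 4.14% and 2.34% higher. Where human UMIs made up 75% or more of a barcode, the mesenchymal medians were −0.59 with agrimoniin, −0.50 with erlotinib and −0.77 with the combination. The epithelial medians were 0.31, 0.14 and 0.25. In that setting all comparisons with control rest on few control parts. Control kept 66 human parts, of which 45.5% were non-cycling, against 149, 153 and 163 kept parts in agrimoniin, erlotinib and combination. With at most 10% mitochondrial UMIs the epithelial medians were lower than in the main setting, at 0.20, 0.14 and 0.007 in agrimoniin, erlotinib and combination. Over the other alternatives the agrimoniin median of the mesenchymal genes reached 0.06, above control. Of 7 measured epithelial genes, 0 were past the fold in agrimoniin, 2 (JUP and DSP) were past it and higher in erlotinib and 1 (DSP) in combination, and the medians were 0.25 in agrimoniin, 0.31 in erlotinib and 0.22 in combination. In remaining parts the epithelial medians were −0.11, −0.01 and 0.18. JUP, the plakoglobin of cell junctions, stood at 126, 165, 145 and 99.2 CPM, and DSP, the desmoplakin gene of desmosomes, at 148, 244, 235 and 151 CPM in agrimoniin, erlotinib, combination and control. The keratin genes KRT8 and KRT18, which form the filaments of simple epithelia, were past the fold and higher in erlotinib, as was KRT80. KRT18 stood at 48.1, 78.8, 53.3 and 45.2 CPM, 1.74-fold higher in erlotinib (1.25 to 2.47), and its log2 ratio was 0.10 in remaining parts. KRT10 stood at 80.6, 65.4, 67.4 and 113 CPM, past the fold and lower in erlotinib and combination. KRT80 was past the fold and lower in combination as well, where 0 of the 4 measured keratins were past it and higher. These are small sets: 4 of 14 keratin genes and 7 of 18 epithelial genes reached the level needed.

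Set against erlotinib alone, the combination had more RNA for DUSP6, BMPR1B, NEDD9 and SFRP1 in non-cycling parts and less for HSPA6, KRT80 and H19. DUSP6 was 3.43-fold higher in combination than in erlotinib (2.84 to 4.16), with a log2 ratio of 1.77 in non-cycling and 1.64 in remaining parts, and 1.24-fold lower in combination than in agrimoniin (1.10 to 1.40). HSPA6 was 5.28-fold lower in combination than in erlotinib (3.48 to 8.29), and its ratio to agrimoniin was 1.12 (0.633 to 1.99). BMPR1B was 4.23-fold higher in combination than in erlotinib (2.42 to 7.82), and SFRP1 was 2.89-fold higher (2.19 to 3.84). NEDD9, a scaffold of cell adhesion, stood at 40.5 CPM in combination and 10.7 CPM in erlotinib, and CCDC173 at 64.1 and 18.7 CPM, with log2 ratios of 1.42 and 1.05 in remaining parts. In the agrimoniin library NEDD9 stood at 43.3 CPM and CCDC173 at 54.1 CPM, so erlotinib was the lowest of the 3 treated libraries for both. EGFR was 1.40-fold lower in combination than in erlotinib (1.18 to 1.68), and its log2 ratio in remaining parts was 0.03. KRT80, a keratin gene, stood at 15.5 CPM in combination and 46.7 CPM in erlotinib, 3.01-fold lower (1.86 to 5.06). ADAMTSL4-AS1, an antisense gene whose reads depend on strand-aware counting, and ST3GAL5, which makes a ganglioside, were 2.52-fold and 2.18-fold lower in combination than in erlotinib. H19 was 2.21-fold lower in combination than in erlotinib (2.06 to 2.37), but in remaining parts it was higher in combination, at 1081 CPM against 672 CPM.

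Against agrimoniin, ZFAND2A was 2.19-fold lower in combination (1.5 to 3.24), with a log2 ratio of −0.94 in remaining parts and −0.44 with parts thinned to 5000 UMIs, and DKK1, a secreted Wnt antagonist, stood at 24.3 CPM in combination and 52.9 CPM in agrimoniin. TSPYL4, MED23, a Mediator subunit gene, and TBCK were 2.13- to 2.18-fold lower, while ZNF90 was 2.29-fold higher (1.58 to 3.37). CSMD3, FAM171B, CASP8AP2 and ATN1 were 1.89- to 2.08-fold higher. Of these 10 genes 5 were under the fold in an alternative: ZFAND2A, DKK1 (−0.56, at most 10% mitochondrial UMIs), MED23 (−0.51) and CASP8AP2 (0.43), both at a marker threshold of 0.1%, and CSMD3 (0.30, thinned). Cholesterol synthesis genes had a median of −0.37 in combination against agrimoniin, with 0 of 14 above a ratio of 1 and 3 past the fold and lower, beside a median of 0.13 in remaining parts and −0.03 over all genes. Of all genes, 3.05% were past the fold and lower in this comparison. HMGCS1, the enzyme that starts the pathway, stood at 214, 172, 125 and 140 CPM in agrimoniin, erlotinib, combination and control, and was 1.71-fold lower in combination than in agrimoniin (1.43 to 2.05). FDPS, the farnesyl diphosphate synthase gene, stood at 71.0, 64.8, 45.2 and 64.7 CPM and FDFT1, the squalene synthase gene, at 46.3, 26.7, 25.6 and 39.0 CPM. Agrimoniin was the highest library for all 3, which were named by the size of their ratios. Against control the list had medians of 0.22, 0.12 and −0.15 in agrimoniin, erlotinib and combination. In remaining parts the medians against control were −0.12, −0.03 and −0.05.

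How far a treatment ratio was shared with the remaining parts of the same tumours was counted over all genes. In agrimoniin 23 of the 172 genes past the fold and higher in non-cycling parts (13.4%) were also past the fold and higher in remaining parts, which is 13.1% of the 176 genes there, and 3.05% of all genes were so. For lower genes they were 17 of 105 (16.2%), or 10.5% of 162, beside 2.81% of all genes. In erlotinib 27 of 239 higher genes (11.3%), or 16.4% of 165, and 22 of 203 lower genes (10.8%), or 14.8% of 149, were shared, beside 2.86% and 2.58% of all genes. In combination 17 of 135 higher genes (12.6%), or 8.29% of 205, and 23 of 168 lower genes (13.7%), or 12.9% of 178, were shared, beside 3.55% and 3.08% of all genes. Both kinds of part come from the same libraries. Over all kept human parts, which hold the most UMIs, 99, 139 and 117 genes were past the fold in agrimoniin, erlotinib and combination against control.

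Non-cycling parts also varied among themselves. Thinned to 5000 UMIs, the median gene had a variance over mean of 1.21 in agrimoniin, 1.18 in erlotinib, 1.18 in combination and 1.21 in control, where counting alone gives a value near 1, and 577, 421, 466 and 503 of the 5771 genes were over 2. ZFP36, an immediate early gene that destabilises cytokine messages, varied most, with a median over the libraries of 71.1, followed by COL1A1 at 51.4, H19 at 37.9, the nuclear noncoding RNA MALAT1 at 34.9 and MT-CO1 at 30.4. Next came RPS16, MT-CO3, MT-ND4, EEF1A1 and MT-ATP6, from 20.8 down to 15.5. Within 1 part ZFP36 had a median of 2380, 4767, 3674 and 2106 CPM in agrimoniin, erlotinib, combination and control and reached 48212, 58608, 42509 and 52867 CPM. Its quartiles were 1459 and 13621 CPM in erlotinib and 780 and 7634 CPM in control. Summed over parts ZFP36 stood at 6576, 11054, 8464 and 7107 CPM, 1.56-fold higher in erlotinib (1.51 to 1.60), but with a log2 ratio of −0.22 in remaining parts. COL1A1 had a median of 3523, 3482, 4601 and 3869 CPM within a part. DUSP6 was found in 85 of 138 parts in agrimoniin, 47 of 130 in erlotinib, 86 of 129 in combination and 52 of 98 in control. Its median within a part was 122 CPM in agrimoniin, 0 in erlotinib, 149 in combination and 55.6 in control, so agrimoniin and combination stood in the other order than in the summed CPM.

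**Figure D5:**
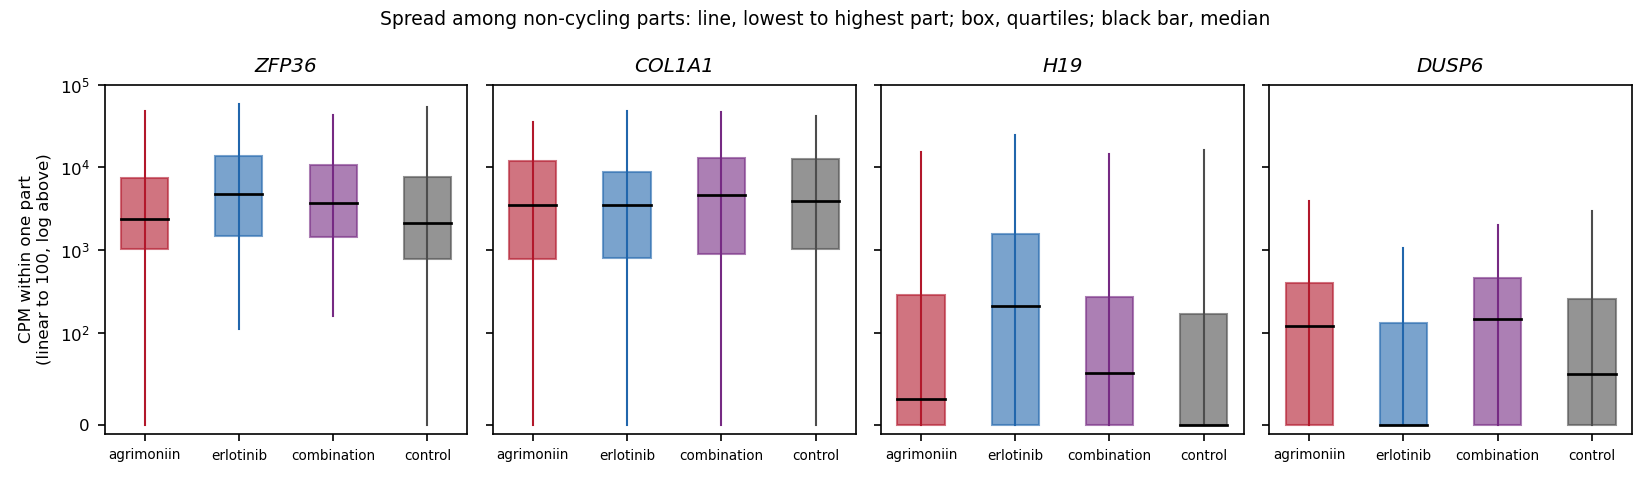
CPM within single non-cycling parts for ZFP36, COL1A1, H19 and DUSP6 in agrimoniin, erlotinib, combination and control (lines from the lowest to the highest part, boxes from the first to the third quartile, black bars at the median, axis linear up to 100 CPM and logarithmic above). The median part has 213 CPM of H19 in erlotinib and 0 in control, and 0 CPM of DUSP6 in erlotinib and 149 CPM in combination.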

How the data were processed

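The 4 libraries were deposited as count matrices of UMIs per gene and barcode, not normalised, over 36601 human and 32285 mouse genes. Cell Ranger made them from the builds hg38 and mm10, per the submitters' processing notes, which give no version. The labels' protocols describe collagenase II digestion and a Chromium 3' kit loaded for 8000 cells, while the files hold 202 to 306 barcodes each, with barcodes of 27 bases, so how barcodes were called is in doubt.

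Human UMIs were split from mouse UMIs by gene. No doublet caller was run, since all barcodes held both species, and a part may hold more than 1 cell. UMIs were summed over the non-cycling parts of a library and scaled to CPM. A pseudocount of 1 CPM was added before log2 ratios, and it understates ratios of low genes. Ratios have exact 95% intervals conditional on the sum of both counts. No test was run, because there is 1 library per group. Scripts used Python 3.11.15, numpy 2.4.6, scipy 1.17.1, pandas 2.3.3 and matplotlib 3.10.9. The ratio step was tested on simulated counts drawn with counting error alone. That check does not cover the spread among parts, which the intervals leave out as well. Gene positions are from GENCODE 29, where 657 of 658 identifiers were found.

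Named genes were the 10 highest and 10 lowest against control (5 and 5 against each single drug) among genes of at least 30 CPM in the mean, detected in 10% or more of the parts of the higher library and at most 20% of its UMIs from 1 part. EGFR, DUSP6, EREG, LDHA, LDHB, CDKN1A, CCND1, HSPA6 and the 16 rule genes were added, with up to 4 members of each list by size of ratio. Against the remaining parts 10 and 10 genes could be named by the mean ratio over the 4 libraries, and 10 by their variance over mean. HSPA1B was added after its values were seen. Some genes that these rules name are not reported here. The parts, the 29 gene lists and these rules were chosen with earlier results of these data known. Alternatives changed the marker threshold, the filters on parts, the pseudocount, the CPM minimum, the scaling and the depth.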

Additional observations from a re-analysis of the deposited data

How the results depend on the processing

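No paired analysis was possible because each group has 1 library and no replicate numbers. The counts of genes past 1.5-fold were 277, 442 and 303 for agrimoniin, erlotinib and combination against control. They were 264 and 337 for combination against agrimoniin and erlotinib. These counts moved with settings on the parts, the genes, the depth and the pseudocount. In the same order they were 815, 1015, 857, 494 and 589 in barcodes with at least 75% human UMIs, where control kept 66 human parts. In parts with at most 10% mitochondrial UMIs they were 653, 764, 690, 469 and 560. With parts thinned to 5000 UMIs they were 743, 828, 755, 628 and 709. All 3 settings leave fewer UMIs, and the part of this in the counts was not tested. The counts were 1072, 1284, 1114, 916 and 1070 of the 9247 genes of at least 10 CPM. They were 39, 78, 32, 33 and 49 of the 1994 genes of at least 100 CPM. These bases differ from the 5771 genes of the main setting. With a pseudocount of 10 CPM the counts were 152, 253, 153, 133 and 198 of 5771 genes. A marker threshold of 0.03% gave 510, 751 and 474 genes for the 3 comparisons with control, and 0.1% gave 177 in agrimoniin and 224 in erlotinib against control and 147 for combination against agrimoniin. The non-cycling share was 37.1%, 30.8%, 39.6% and 36.3% in agrimoniin, erlotinib, combination and control at 0.03%, and 62.5%, 62.3%, 65.7% and 70.5% at 0.1%. It was 55.3% in agrimoniin with at most 10% mitochondrial UMIs and 35.9% in erlotinib with at least 75% human UMIs. Of the other 24 counts and 14 shares, each stayed within 1.5 times the main count or within the main interval.

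Of the 10 highest and 10 lowest genes against control, 4 (agrimoniin), 2 (erlotinib) and 4 (combination) were under the fold in at least 1 alternative, as were 5 of 10 for combination against agrimoniin and 0 of 10 against erlotinib. Over all genes considered for naming, those left out for UMIs in few parts included, ratios past the fold changed sign in 4 cases, 2 of them in the same ratio of CTSV. CSMD3 was then 0.53 in erlotinib and CROCC 0.067 in combination (at least 75% human UMIs), and CTSV in combination against agrimoniin was 0.46 (at most 10% mitochondrial UMIs) and 0.080 without the part that holds most of its UMIs, an alternative chosen after seeing the data. Of 145 list medians 82 had the other sign in at least 1 alternative. Of the 35 that were 0.2 or more in size, 7 did: in agrimoniin interferon response (0.12, genes of at least 10 CPM), BMP and ID genes (0.10) and the mitochondrial genome (0.023, both at most 10% mitochondrial UMIs), in erlotinib arrest and exit (-0.0030, at least 75% human UMIs), in combination keratins (0.13, threshold of 0.03%), and in combination against agrimoniin mesenchymal genes (0.017, genes of at least 100 CPM) and basement membrane (0.075, at least 75% human UMIs). The cause was not tested. HSPA6 ranged from -3.33 to -1.75 in agrimoniin and from -3.34 to -1.84 in combination over 13 alternatives, DUSP6 from 0.73 to 1.67 in agrimoniin, from -1.44 to -0.53 in erlotinib and from 0.53 to 1.16 in combination, and EREG from -1.30 to -0.43, from -1.55 to -0.68 and from -1.81 to -0.84.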

Other observations

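Several genes with large ratios sat in a small number of non-cycling parts and were kept out of the named genes for that reason. IGFBP5, which binds insulin-like growth factors, stood at 21.7 CPM in agrimoniin, 14 in erlotinib, 134 in combination and 123 in control, but was found in 8, 5, 14 and 7 parts in that order, and the top 3 parts held 75%, 90.5%, 71.9% and 70.5% of its UMIs. TIMP3, an inhibitor of matrix proteases, stood at 25.3, 68.8, 52.6 and 13.3 CPM in 7, 7, 14 and 4 parts. CCL2, a chemokine that attracts monocytes, stood at 81.8, 31.4, 41.1 and 16.8 CPM in 19, 10, 20 and 9 parts. The mouse gene Ccl2 in the same barcodes stood at 1151 CPM of mouse UMIs in agrimoniin, 1016 CPM in erlotinib, 1457 CPM in combination and 621 CPM in control, and its part in the human count was not tested. HMOX1, the haem oxygenase of the oxidative stress response, stood at 68.0, 36.1, 34.4 and 100 CPM, with 31.9% of the control UMIs from 1 part.

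Among inflammatory genes, ICAM1, an adhesion molecule for leukocytes, stood at 57.7 CPM in agrimoniin, 32.7 in erlotinib, 40.5 in combination and 32.8 in control, and SOCS3, an inhibitor of cytokine signalling, at 164, 302, 268 and 282 CPM. SOCS3 was 1.73-fold lower in agrimoniin (1.46 to 2.04), with a log2 ratio of -0.89 in remaining parts. Immediate early genes had medians of 0.05, 0.16 and 0.15 in agrimoniin, erlotinib and combination, against -0.25, -0.24 and -0.26 in remaining parts. JUNB stood at 494, 741, 607 and 477 CPM and KLF4 at 143, 66.1, 133 and 121 CPM in agrimoniin, erlotinib, combination and control. CCN2, a target of YAP, stood at 371, 199, 208 and 207 CPM, with 216, 120, 224 and 105 CPM in remaining parts. The lists of the integrated stress response, lactate handling, MHC class I presentation and nuclear oxidative phosphorylation had medians between -0.25 and 0.13 against control.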
